A study of Homo sapiens with 18 samples.

Results

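Inflammatory cytokines and chemokines were followed as a set of 10 genes, IL6, IL8 (CXCL8 in current annotation), CXCL1, CXCL2, CXCL3, CCL2, IL1A, IL1B, IL11 and LIF, among the 23411 gene symbols counted in each library. The set was chosen by name, with earlier results of these data known, and all 10 symbols were present in the count files. The mRNA came from ARPE-19, a spontaneously arising human retinal pigment epithelium (RPE) cell line. There were 18 libraries, 3 in each of 6 groups.

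Control cells carried a Cas9 lentiviral vector without a guide RNA and had the NFE2L2 genotype labelled WT. NRF2-edited cells, named NRF2 ΔC here and C1 in the library names, carried Cas9 with a guide RNA against exon 5 of NFE2L2, the gene of the transcription factor NRF2, and had 2 edited alleles with stop codons at positions 503 and 505. Cells of each line were left untreated (Milli-Q water), received 1 mM NACET (N-acetylcysteine ethyl ester, a cell-permeable cysteine donor) or received 0.2 mM H2O2. All groups shared the Cas9 vector. NACET and H2O2 were each compared with the same untreated libraries of their line, and the labels give a reagent lot for each agent, which cannot be told apart from the treatment. The series' design text gives 8 h of treatment after 40 h in 10 % serum, but on each sample's own label these are 2 h, 22 h and 1 %. The authors' paper also states 8 h and 40 h for this experiment, and 10 % serum for its later experiments. The files alone do not settle which is right. According to the authors' paper, the edited cells went through clonal selection, and C1 is the clone that was chosen. Only 1 line of each genotype was sequenced, so the edit and other differences between the lines cannot be told apart.

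Cytokines and chemokines are short secreted proteins through which epithelial cells call in and instruct immune cells. IL8, CXCL1, CXCL2 and CXCL3 belong to the ELR group of CXC chemokines, which attract neutrophils through CXCR2 and, for IL8, also CXCR1, and CCL2 attracts monocytes through CCR2. IL-1α and IL-1β, from IL1A and IL1B, signal through the receptor IL1R1 to NF-κB, which in turn drives many of the other genes of the set, while IL6, IL11 and LIF signal through gp130 to STAT3. RPE cells are known to secrete several of these proteins when they are stimulated.

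Each library held between 16673306 and 25951154 reads on genes, so 3 reads corresponded to between 0.117 and 0.174 TMM-normalised CPM (counts scaled to library size). NFE2L2 was between 102 and 149 CPM in every library, and since the edit truncates the protein this level does not test the genotype. Of 12 RPE markers, 7 had a median of at least 1 CPM, among them MITF, OTX2, KRT8, KRT18 and TJP1, whereas RPE65 reached 1 read and TTR 2 reads at most. Of 10 immune cell markers, AIF1, CD3E and TYROBP had no read in any library, PTPRC had at most 1 read in a library, and CD68, a lysosomal gene that other cells also express, was the one with a median of at least 1 CPM. The summed CPM of the RPE markers lay between 1448 and 1582 in the untreated libraries, between 1262 and 1447 with NACET and between 1107 and 1190 with H2O2, so this sum, most of it KRT8 and KRT18, moved with the treatments compared here. BEST1, a marker of the same list, rose with H2O2 in control cells (log2 fold change 1.70) and in NRF2 ΔC cells (3.76). It had 4 to 11 reads in an untreated library. MITF, at 64.8 to 185 CPM, went the other way with H2O2 in NRF2 ΔC cells (-0.74, and -0.93 to -0.60 when a library was left out). That call was lost without untreated replicate 1, 2 or 3 and without H2O2 replicate 2 or 3. With NACET, MITF was also lower in NRF2 ΔC than in control cells (-0.74). Of 7 fibroblast markers, PDGFRB fell with H2O2 in both lines (-0.75 and -1.18) and ACTA2 rose with H2O2 in NRF2 ΔC cells (1.05). In each line the PDGFRB call was lost without untreated replicate 1 or 2 and without H2O2 replicate 2 or 3. The list's summed CPM in control cells was 438 to 720 untreated, 285 to 466 (NACET) and 347 to 453 (H2O2). The sum in NRF2 ΔC cells was 326 to 550 untreated, 191 to 379 (NACET) and 300.3 to 359 (H2O2). The part of these markers in the results was not tested, and in bulk RNA a smaller number of expressing cells cannot be told apart from less mRNA per cell.

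The promoters of 8 members were present in the RefSeq table (GRCh38.p14), each from 250 bases before to 50 bases after the start site, and each matched 1 place in GRCh37, the build the reads were mapped to. CCL2 and LIF had no entry. Those of IL8, CXCL1, IL1A and IL1B are shown because these genes carry the contrasts described later: IL8 and CXCL1 are neighbours of 1 family with very different read counts, and IL1A and IL1B were both higher in NRF2 ΔC cells. Capitals mark GGANTTTCC (1 form of the NF-κB site), TGANTCA (the AP-1 site), TGACNNNGC (the core of the antioxidant response element bound by NRF2, which can overlap TGANTCA) and TATAAA (the TATA box), searched on both strands. The sequences run 5′ to 3′ along the gene, IL8 from chr4:74606036-74606335 (plus strand), CXCL1 from chr4:74734860-74735159 (plus strand), IL1A from chr2:113541928-113542227 (minus strand) and IL1B from chr2:113594307-113594606 (minus strand).
IL8: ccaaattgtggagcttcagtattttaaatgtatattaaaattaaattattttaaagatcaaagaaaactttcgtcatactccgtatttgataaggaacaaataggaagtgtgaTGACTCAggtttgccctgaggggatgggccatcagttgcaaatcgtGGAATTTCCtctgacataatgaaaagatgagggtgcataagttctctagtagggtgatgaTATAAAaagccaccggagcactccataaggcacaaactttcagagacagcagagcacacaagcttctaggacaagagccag
CXCL1: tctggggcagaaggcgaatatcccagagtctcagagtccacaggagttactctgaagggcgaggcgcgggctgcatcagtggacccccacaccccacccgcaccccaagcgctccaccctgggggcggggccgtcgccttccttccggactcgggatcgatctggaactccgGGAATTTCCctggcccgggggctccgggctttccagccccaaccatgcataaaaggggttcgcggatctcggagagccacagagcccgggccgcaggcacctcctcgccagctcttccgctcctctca
IL1A: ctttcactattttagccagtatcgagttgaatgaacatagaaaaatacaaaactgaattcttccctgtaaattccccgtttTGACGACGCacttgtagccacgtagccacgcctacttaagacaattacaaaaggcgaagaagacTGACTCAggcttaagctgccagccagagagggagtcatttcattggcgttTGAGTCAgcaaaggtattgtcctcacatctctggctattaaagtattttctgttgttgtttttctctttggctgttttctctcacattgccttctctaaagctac
IL1B: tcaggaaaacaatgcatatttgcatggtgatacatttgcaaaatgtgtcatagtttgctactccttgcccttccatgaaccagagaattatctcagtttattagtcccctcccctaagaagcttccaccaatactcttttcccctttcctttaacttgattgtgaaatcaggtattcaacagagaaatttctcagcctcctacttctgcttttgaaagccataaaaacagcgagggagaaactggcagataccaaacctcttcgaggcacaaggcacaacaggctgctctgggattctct

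The GGANTTTCC form was found in 5 of the 8 member promoters, those of IL6, IL8, CXCL1, CXCL2 and CXCL3, and in 1.64 % of 35116 promoters of the same length. In IL8 it read GGAATTTCC, at -91 to -83 from the start site, and the same letters stood at -78 to -70 in CXCL1 and CXCL3 and at -77 to -69 in CXCL2. TGANTCA was found in IL8, in IL11 and at 2 places in IL1A, against 7.71 % of all promoters. TGACNNNGC was found in IL1A only, at -169 to -161, against 13.3 % of all promoters. TATAAA was found in IL8 only, at -31 to -26, against 11.5 % of all promoters. The IL1B window held none of the 4. A match is a description of letters and was not measured as bound.

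LIF was by far the most abundant member per length. In untreated control cells it was at 55.5 CPM per kilobase of transcript, followed by CCL2 at 19.7, IL11 at 1.25, IL6 at 1.20 and IL1B at 0.734 CPM per kilobase. IL8, CXCL3, IL1A and CXCL2 lay between 0.240 and 0.0953 CPM per kilobase, and CXCL1 had no read there. In untreated NRF2 ΔC cells LIF (43.6), CCL2 (24.0) and IL1B (2.81 CPM per kilobase) were the 3 highest. CXCL1 and CXCL2 were too low to be tested in any comparison. CXCL3 was tested in 5, IL1A in 6, and IL6 and IL8 in 8 of the 9 comparisons between pairs of groups, whereas CCL2, IL1B, IL11 and LIF were tested in all 9.

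**Figure D1:**
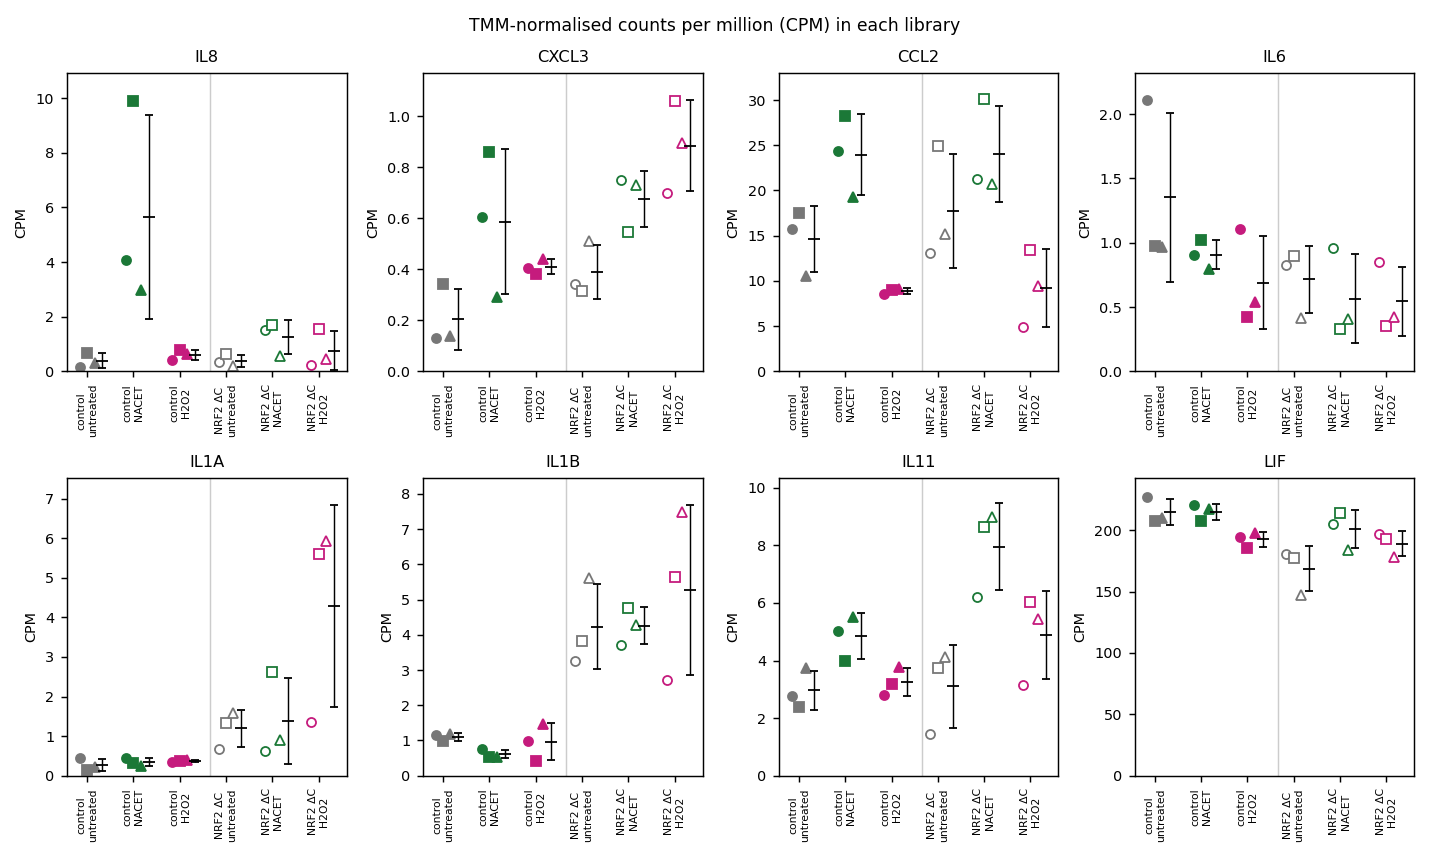
TMM-normalised CPM (y axis, linear, from 0) of 8 members in the 6 groups (x axis), with circles, squares and triangles for replicates 1, 2 and 3, filled for control and open for NRF2 ΔC cells, and a black mean with SD (n = 3) beside each group. IL8 stood highest in NACET-treated control cells (2.97 to 9.90 CPM), IL1A and IL1B stood higher in NRF2 ΔC cells, and LIF stayed between 147 and 227 CPM.

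Few members were called with either treatment when the replicate numbers were not used in the fit. Differentially expressed genes (DEGs) were called with edgeR's quasi-likelihood test on the 6 libraries of the 2 groups, where the p-value adjusted after Benjamini and Hochberg had to be under 0.05 and the log2 fold change 0.6 or more in either direction. With NACET in control cells, 1 of 6 members tested rose, IL8, and none fell, where 1.39 % of 13696 genes tested rose and 1.35 % fell. IL8 had enough reads to be tested there through its NACET libraries (81, 184 and 71 reads, against 4, 14 and 7 untreated). Its place among the 6 tested is therefore not separate from its rise. With H2O2 in control cells, 1 of 6 fell, CCL2, where 3.37 % of all genes fell and 2.96 % rose. In NRF2 ΔC cells, edgeR's quasi-likelihood test called 0 of 8 members with NACET, where 1.39 % of all genes were called in either direction, and 0 of 8 with H2O2, where 9.81 % were. In each of these 2 comparisons 3 members had an unadjusted p-value under 0.05, and DESeq2 called 1 member with NACET (IL11) and 2 with H2O2 (CCL2 and IL1A), where it called 4.32 % and 12.3 % of all genes.

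Within a cell line, same-numbered libraries deviated together from their group means, and the number was therefore also used as a block. A block fit of 6 libraries leaves little of a gene's own spread to measure, so its p-values lean on spread pooled over genes. Their size cannot be compared between comparisons. With the block in control cells, PDGFRB had -0.77 (standard error 0.060, edgeR adjusted p = 5.15e-30) with NACET and -0.74 (standard error 0.049, edgeR adjusted p = 6.85e-09) with H2O2. With this block, 4 of 6 members tested were called with NACET in control cells (7.49 % of all genes). H2O2 in control cells gave 2 of 6 (10.2 %). In NRF2 ΔC cells, 2 of 8 were called with NACET (8.82 %) and 5 of 8 with H2O2 (18.7 %). The median log2 fold change of the members tested was 0.35 with NACET in control cells and 0.33 in NRF2 ΔC cells, against -0.0057 and -0.0067 over all genes tested. With H2O2 it was -0.18 in control cells and 0.49 in NRF2 ΔC cells, against -0.0038 and -0.0086. Members removed for low counts are not in these medians, and IL8 entered the NACET median of control cells through its NACET libraries.

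**Figure D2:**
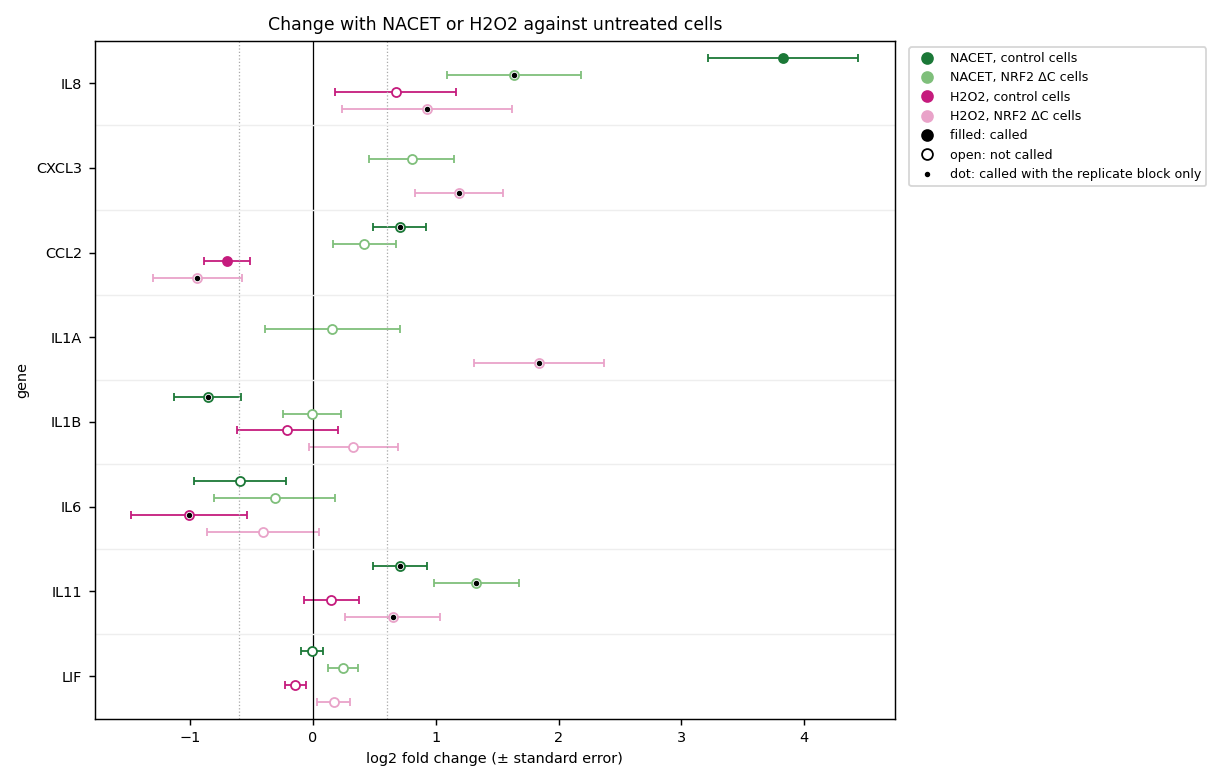
Log2 fold change with its standard error (x axis) of 8 members (y axis) for NACET and H2O2 against untreated cells, dark colours for control and light colours for NRF2 ΔC cells. Filled points were DEGs, a dot inside an open point marks a call made with the replicate block only, dotted lines mark 0.6 in either direction, and a missing point was too low to test. IL8 with NACET in control cells lay farthest from 0 (3.83), and CCL2 lay above 0 with NACET and under 0 with H2O2 in both lines.

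IL8, the main human neutrophil chemokine, was the member with the largest change. In untreated control cells it was at 0.176, 0.683 and 0.322 CPM in replicates 1, 2 and 3 (4, 14 and 7 reads), and with NACET at 4.08, 9.90 and 2.97 CPM (81, 184 and 71 reads). Every NACET-treated library lay above every untreated one, by 23.2-, 14.5- and 9.21-fold at the same replicate number. The log2 fold change was 3.83 (standard error 0.61, edgeR adjusted p = 0.0209). The call was lost when untreated replicate 1, 2 or 3 or NACET replicate 1 or 2 was left out, with log2 fold changes between 3.16 and 4.46 over all 6 such fits. With H2O2, control cells had 0.407, 0.763 and 0.638 CPM of IL8, values that overlapped those of untreated cells, and the log2 fold change of 0.67 (standard error 0.49) was not called (edgeR adjusted p = 0.387). NACET and H2O2 also differed directly in control cells, where IL8 was higher with NACET by 3.17 on the log2 scale (edgeR adjusted p = 0.0167). That call was lost when H2O2 replicate 1, 2 or 3 was left out (2.49 to 3.47 over all 6 fits that left out a library).

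In NRF2 ΔC cells IL8 reached lower values with NACET, all under those of NACET-treated control cells. It was at 0.341, 0.626 and 0.185 CPM without treatment and at 1.50, 1.70 and 0.547 CPM with NACET, and each NACET-treated library was above the untreated one of the same number (4.39-, 2.71- and 2.96-fold), although the groups overlapped. The log2 fold change of 1.64 (standard error 0.55) was not called by edgeR's quasi-likelihood test (adjusted p = 0.162), and it was called with the replicate block (1.67, adjusted p = 0.000899). With H2O2 the 3 libraries held 0.250, 1.56 and 0.468 CPM, and the log2 fold change of 0.93 was called with the replicate block only (0.97, edgeR adjusted p = 0.0388). H2O2 replicate 2 carried this value, which was -0.092 without it. NACET-treated NRF2 ΔC cells against NACET-treated control cells gave -2.17 on the log2 scale (standard error 0.55), which missed the threshold (edgeR adjusted p = 0.0667) and was called by DESeq2, as were 5.32 % of all genes.

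The other 3 ELR chemokines were barely detected. CXCL1 had 1 read in each of 3 libraries, all of NRF2 ΔC cells, and none in the others, where a count of 0 allows up to 3 reads. CXCL2 had between 0 and 9 reads in a library and 70 in all. CXCL3 had between 3 and 21 reads in a library and 199 in all, so its values carry a large counting error. CXCL3 was at 0.132, 0.342 and 0.138 CPM in untreated control cells and at 0.605, 0.861 and 0.293 CPM with NACET, and was removed as too low in the comparisons of control cells. It went, in NRF2 ΔC cells, from 0.341, 0.313 and 0.509 CPM untreated to 0.701, 1.06 and 0.894 CPM with H2O2, without overlap between the groups. The log2 fold change was 1.19 (standard error 0.36, edgeR adjusted p = 0.0634), and it was called with the replicate block (1.19, adjusted p = 0.00574) and without H2O2 replicate 1 (log2 fold changes of 1.04 to 1.43 over the 6 fits that left out a library). With NACET it was at 0.750, 0.548 and 0.730 CPM, all above the untreated libraries, with a log2 fold change of 0.80 that was not called (edgeR adjusted p = 0.262).

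**Figure D3:**
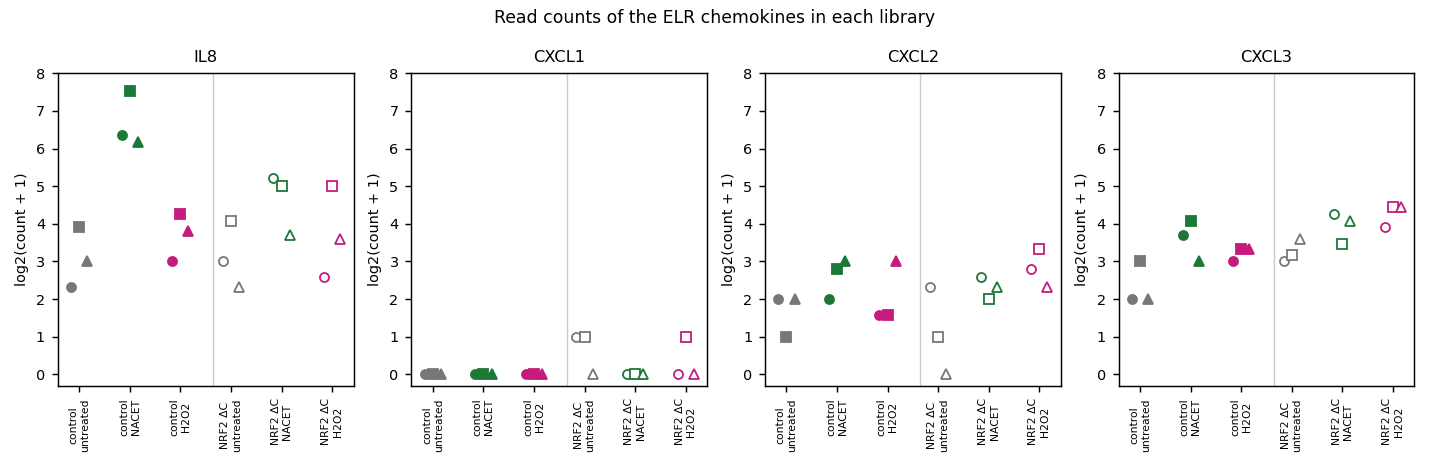
Read counts of the 4 ELR chemokines in each library, as log2(count + 1) on the y axis, by group on the x axis, with symbols as in the plot of CPM. IL8 reached 184 reads in NACET-treated control cells, CXCL3 21, CXCL2 9 and CXCL1 1.

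CXCL1, CXCL2 and CXCL3 lie within a short stretch of chromosome 4 with IL8 and are close copies of each other. Of the stretches of 50 bases in the CXCL2 transcript, 5.63 % were also present in CXCL1 and 5.07 % in CXCL3, and of those in CXCL1 0.533 % were present in CXCL3. IL8 shared none with any of the 3. Reads that map to several places were left out by the authors' counting, so the counts of CXCL1, CXCL2 and CXCL3 may be too low and are uncertain. The read length is not given in the sources used here.

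CCL2, which attracts monocytes, was higher with NACET than with H2O2 in both cell lines. In control cells it was at 15.8, 17.5 and 10.5 CPM untreated, at 24.4, 28.2 and 19.3 CPM with NACET and at 8.55, 8.99 and 9.13 CPM with H2O2. The 3 groups did not overlap. With H2O2 CCL2 fell by 0.70 on the log2 scale (standard error 0.19, edgeR adjusted p = 0.0456). This call was lost without untreated replicate 1 or 2 and without H2O2 replicate 1, 2 or 3 (-0.89 to -0.55), and also in 1 fit of all 18 libraries. With NACET the log2 fold change of 0.71 (standard error 0.21) was not called (edgeR adjusted p = 0.114), and it was called with the replicate block (0.72, adjusted p = 2.14e-13). NACET against H2O2 gave 1.42 (standard error 0.16, edgeR adjusted p = 0.00448), a call kept whichever of the 6 libraries was left out. In that comparison 2 of 6 members tested were called, IL8 and CCL2, both higher with NACET, where 2.25 % of all genes were higher and 1.43 % lower.

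CCL2 in NRF2 ΔC cells was at 13.1, 25.0 and 15.2 CPM untreated, 21.3, 30.1 and 20.7 CPM with NACET and 4.85, 13.5 and 9.41 CPM with H2O2. Replicate 2 was the highest in each of these groups. Within each replicate number the order was H2O2, untreated, NACET, with NACET at 1.21- to 1.62-fold and H2O2 at 0.370- to 0.618-fold of untreated. H2O2 gave a log2 fold change of -0.94 (standard error 0.36, edgeR adjusted p = 0.122) that was called with the replicate block (-0.97, adjusted p = 3.98e-09). NACET gave 0.42 (edgeR adjusted p = 0.433). NACET against H2O2 gave 1.39 (standard error 0.34, edgeR adjusted p = 0.0417), where CCL2 was the 1 member of 7 tested that was called and 5.09 % of all genes were higher and 3.22 % lower with NACET. The call was lost without H2O2 replicate 2 or 3 and without NACET replicate 1, 2 or 3 (1.08 to 1.75). With the replicate block 3 members were called there, CCL2, IL11 (0.73, adjusted p = 0.000191) and IL1A (-1.65, edgeR adjusted p = 1.64e-05), where 15.5 % of all genes were.

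IL1A and IL1B, which lie close together on chromosome 2, were higher in NRF2 ΔC than in control cells. Of 6 members tested in untreated cells, these 2 rose, where 0.729 % of 13710 genes did and 3.12 % fell. IL1A had enough reads to be tested here only in the NRF2 ΔC libraries (14, 34 and 34, against 10, 3 and 5). Its place among the 6 tested is therefore not separate from its rise. IL1B was at 1.14, 0.976 and 1.20 CPM in untreated control cells and at 3.27, 3.83 and 5.60 CPM in untreated NRF2 ΔC cells, without overlap (log2 fold change 1.93, standard error 0.27, edgeR adjusted p = 0.00467). IL1A was at 0.440, 0.146 and 0.230 CPM in untreated control cells and at 0.683, 1.33 and 1.57 CPM in untreated NRF2 ΔC cells, also without overlap (2.10, standard error 0.48, edgeR adjusted p = 0.0465). The call of IL1A was lost without control replicate 2 or 3 and without NRF2 ΔC replicate 2 or 3 (1.81 to 2.64), and in 1 fit of all 18 libraries, while IL1B was called in all 6 fits that left out a library.

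The difference in IL1B was present under both treatments. With NACET it was at 0.756, 0.538 and 0.544 CPM in control and 3.71, 4.77 and 4.29 CPM in NRF2 ΔC cells (2.78, edgeR adjusted p = 0.000616), and it was the 1 member of 8 tested that was called, where 0.895 % of all genes were higher and 3.86 % lower. With H2O2 IL1B was at 0.988, 0.424 and 1.47 CPM in control and at 2.70, 5.65 and 7.50 CPM in NRF2 ΔC cells (2.47, edgeR adjusted p = 0.0160). IL1A was at 0.349, 0.382 and 0.393 CPM in H2O2-treated control cells and at 1.35, 5.60 and 5.92 CPM in H2O2-treated NRF2 ΔC cells, its highest values in the series (3.49, standard error 0.57, edgeR adjusted p = 0.00699). There 2 of 8 members tested rose, where 1.41 % of all genes did and 4.2 % fell. IL1A again had enough reads to be tested only in the NRF2 ΔC libraries. The H2O2 call of IL1B was lost without control replicate 1 or 2 or NRF2 ΔC replicate 2 or 3 (2.06 to 2.92), and that of IL1A was kept in all 6 such fits. With NACET IL1A differed by 1.97 (standard error 0.62), which was not called (edgeR adjusted p = 0.127) but was without NRF2 ΔC replicate 1 (1.17 to 2.34).

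**Figure D4:**
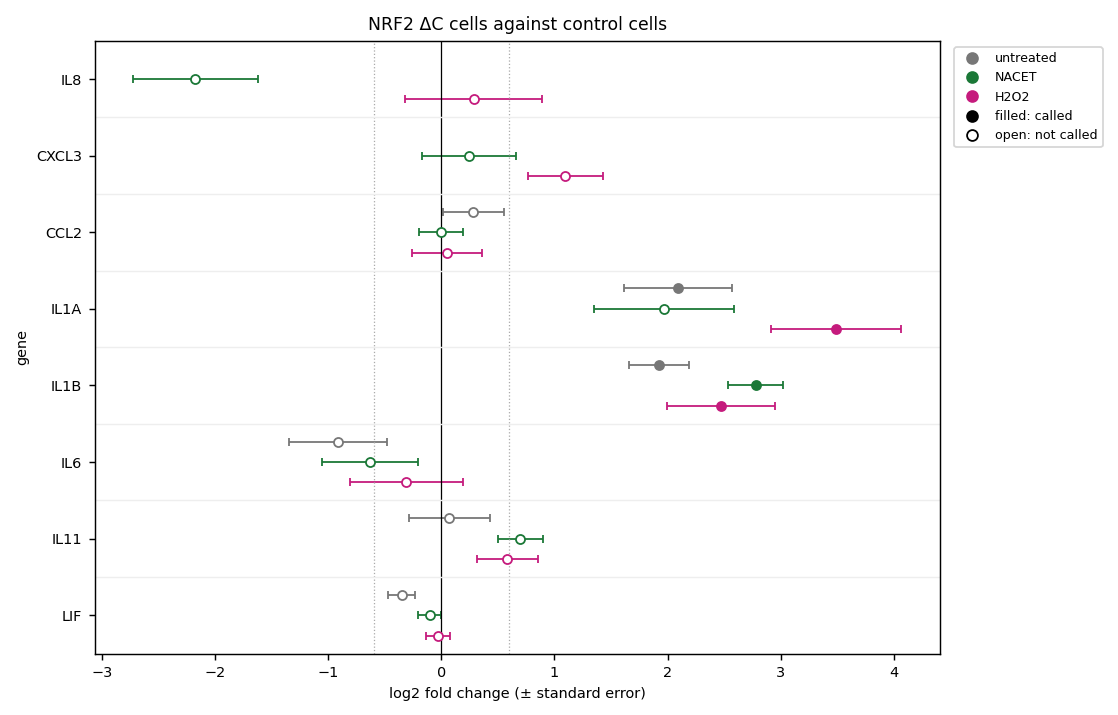
Log2 fold change with its standard error (x axis) of 8 members (y axis) in NRF2 ΔC against control cells, without treatment (grey), with NACET (green) and with H2O2 (pink), with filled points for DEGs and dotted lines at 0.6 in either direction. IL1B was called in all 3 comparisons (1.93 to 2.78), IL1A without treatment (2.10) and with H2O2 (3.49), and no other member was called.

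Within NRF2 ΔC cells, IL1A was higher with H2O2 than without treatment in each replicate number, by 1.98-, 4.21- and 3.76-fold. H2O2 replicate 1, at 1.35 CPM, lay within the untreated range of 0.683 to 1.57 CPM, and the other 2 lay far above it. The log2 fold change of 1.84 (standard error 0.53) missed the threshold (edgeR adjusted p = 0.0564), and it was called with the replicate block (1.81, adjusted p = 1.52e-10) and without H2O2 replicate 1 (1.54 to 2.27 over the 6 fits that left out a library). In control cells IL1A had 3 to 10 reads in a library and was too low to test within that line. IL1B had log2 fold changes of 0.33 with H2O2 and -0.0050 with NACET in NRF2 ΔC cells, neither called. In control cells IL1B was lower with NACET in each replicate number (0.454- to 0.661-fold), with a log2 fold change of -0.86 (standard error 0.27, edgeR adjusted p = 0.123) that was called with the replicate block (-0.86, adjusted p = 0.0166). Across the 18 libraries the log2 CPM values of IL1A and IL1B had a Pearson r of 0.84, a description that rests on the difference between the lines, since the libraries share their line and treatment.

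IL11, a cytokine of the IL-6 family that fibroblasts and epithelial cells release, was highest in NACET-treated NRF2 ΔC cells. It was at 2.77, 2.39 and 3.73 CPM in untreated control cells and at 5.04, 3.98 and 5.52 CPM with NACET, without overlap. The log2 fold change was 0.71 (standard error 0.22, edgeR adjusted p = 0.120), called with the replicate block (0.70, adjusted p = 7.01e-05). NRF2 ΔC cells held 1.46, 3.76 and 4.12 CPM untreated and at 6.21, 8.66 and 8.98 CPM with NACET, again without overlap, with a log2 fold change of 1.33 (standard error 0.35, edgeR adjusted p = 0.0987), called with the replicate block (1.37, adjusted p = 1.09e-05). The values with H2O2 were 2.79, 3.18 and 3.78 CPM in control cells, which overlapped the untreated libraries, and 3.15, 6.05 and 5.45 CPM in NRF2 ΔC cells. The latter gave 0.65 (edgeR adjusted p = 0.288), called with the replicate block (0.68, adjusted p = 0.00191).

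IL6, the cytokine that gives the family its name, was low in all groups. It was at 2.11, 0.976 and 0.966 CPM in untreated control cells, its highest group mean (1.35 ± 0.659 CPM, SD, n = 3), and at 1.10, 0.424 and 0.540 CPM with H2O2. The log2 fold change of -1.01 (standard error 0.47) was not called (edgeR adjusted p = 0.185), and it was called with the replicate block (-0.96, adjusted p = 0.00915). In the other groups it lay between 0.329 and 1.02 CPM. Exons of IL6-AS1 and STEAP1B overlap those of IL6 in the annotation used here, and because the counting ignored strand, reads from the 2 strands cannot be told apart.

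LIF, another gp130 cytokine, was abundant and nearly even across the groups. It was at 227, 207 and 210 CPM in untreated control cells, 220, 208 and 217 CPM with NACET and 195, 186 and 198 CPM with H2O2. NRF2 ΔC cells had 181, 178 and 147 CPM untreated, 205, 214 and 184 CPM with NACET and 197, 192 and 178 CPM with H2O2. None of the 9 comparisons called it, and its log2 fold changes lay between -0.35, for untreated NRF2 ΔC against control cells (standard error 0.12, edgeR adjusted p = 0.219), and 0.25, for NACET in NRF2 ΔC cells. The antisense genes LIF-AS1 and LIF-AS2 overlap its exons, with the same limit on strand as for IL6.

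Whether a treatment acted differently in the 2 lines was tested with the interaction of treatment and cell line, coded as the effect in NRF2 ΔC minus the effect in control cells. For NACET, edgeR's quasi-likelihood test called 0 of 8 members, where 0.0643 % of 14002 genes were called, 2 had an unadjusted p-value under 0.05 and DESeq2 called 0 (0.199 % of all genes). IL8 had an interaction of -2.20 (standard error 0.94, unadjusted p = 0.0378, edgeR adjusted p = 1.00), and IL1B had 0.85 (standard error 0.36, unadjusted p = 0.0345 from the same test). For H2O2, edgeR called 0 of 8, where 0.0214 % of 13987 genes were called, 1 had an unadjusted p-value under 0.05 and DESeq2 called 0 (0.589 % of all genes). When replicate blocks nested in the lines were added, which was decided with the data in view, IL8 was called for NACET (-2.15, edgeR adjusted p = 0.0323), where 0.9 % of all genes were, and LIF for H2O2 (0.33, adjusted p = 0.0464), where 6.91 % were. IL1A, with 1.40 for H2O2 (standard error 0.90), was called by neither fit.

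IL1RN, which encodes the IL-1 receptor antagonist, fell with both treatments in both lines. It was at 2.68, 2.63 and 3.41 CPM in untreated control cells, at 1.16, 0.915 and 1.21 CPM with NACET and at 1.05, 1.23 and 1.33 CPM with H2O2. NRF2 ΔC cells had 2.54, 4.30 and 5.46 CPM untreated, 0.750, 1.31 and 1.19 CPM with NACET and 0.901, 0.958 and 2.30 CPM with H2O2. No treated library reached the lowest untreated one of its line. The log2 fold changes were -1.40 (adjusted p = 0.0209), -1.25 (0.0110), -1.94 (0.0432) and -1.54 (0.0469 from edgeR's quasi-likelihood test) for NACET and H2O2 in control and then in NRF2 ΔC cells. These comparisons share the untreated libraries within a line. In control cells the NACET call was lost without untreated replicate 1, 2 or 3 or NACET replicate 1 or 2 (-1.48 to -1.27) and the H2O2 call without H2O2 replicate 2 (-1.32 to -1.13). In NRF2 ΔC cells the NACET call was lost without replicate 2 or 3 of either group (-2.17 to -1.68) and the H2O2 call without untreated replicate 2 or 3 or H2O2 replicate 2 (-2.12 to -1.28).

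IL1R1, the signalling receptor of IL-1α and IL-1β, was at 1.95, 1.92 and 1.94 CPM in untreated and 4.04, 4.11 and 3.65 CPM in NACET-treated NRF2 ΔC cells, where it rose (1.01, edgeR adjusted p = 0.0444). That call was lost whichever of the 6 libraries was left out (0.99 to 1.06). In control cells its log2 fold change with NACET was 0.90 (edgeR adjusted p = 0.0813), called with the replicate block (0.91, adjusted p = 1.45e-07). Of the 9 receptors and decoys tested, edgeR's test without the block called IL1RN alone with NACET in control cells and with H2O2 in either line. With the block IL6R was also called in NRF2 ΔC cells, with NACET (1.07, adjusted p = 6.86e-06) and with H2O2 (0.66, adjusted p = 0.000796).

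Of the genes that process IL-1, CASP1 was lower in NRF2 ΔC cells and NLRP1 was lower with NACET. CASP1, the protease that cleaves pro-IL-1β, was at 2.77, 2.78 and 3.31 CPM in untreated control and 0.293, 0.704 and 0.648 CPM in untreated NRF2 ΔC cells, a log2 fold change of -2.40 (edgeR adjusted p = 0.00336), and the difference between the lines was -2.61 with NACET and -2.86 with H2O2, both called. NLRP1, an inflammasome sensor, was at 28.3, 18.7 and 25.4 CPM untreated and 13.6, 10.0 and 10.9 CPM with NACET in control cells, and fell there (-1.08, adjusted p = 0.0279) and in NRF2 ΔC cells (-0.89, edgeR adjusted p = 0.0224). The call in control cells was lost whichever of the 6 libraries was left out (-1.23 to -0.94), and the call in NRF2 ΔC cells was lost without replicate 2 or 3 of either group (-0.95 to -0.83). Of the 8 genes tested for release and processing of IL-1, 3 fell in untreated NRF2 ΔC cells, CASP1, CASP4 and PYCARD, and none rose, where 3.12 % of all genes fell and 0.729 % rose. The call of PYCARD was lost without replicate 2 or 3 of either group (-0.93 to -0.80). Between the lines with NACET 2 fell, CASP1 and DFNA5, where 3.86 % of all genes fell. With H2O2 CASP1 fell and NLRP1 rose, where 4.2 % of all genes fell and 1.41 % rose. CASP4 and PYCARD were not called under either treatment.

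NF-κB genes rose in part with NACET. Of 20 tested in control cells, 3 rose with NACET (RELB, TNFAIP3 and NFKBIE) and none fell, with a median log2 fold change of 0.32, where 1.39 % of all genes rose and 1.35 % fell. With H2O2 in control cells none of the 20 rose and TNIP1 fell, where 3.37 % of all genes fell. RELB, an NF-κB subunit, was at 6.16, 6.25 and 5.11 CPM untreated and 11.4, 13.7 and 11.5 CPM with NACET (1.05, edgeR adjusted p = 0.0169). TNFAIP3, which encodes the inhibitor A20, was at 2.73, 3.03 and 3.04 CPM untreated and at 4.89, 6.51 and 4.60 CPM with NACET (0.85, edgeR adjusted p = 0.04999), a call lost whichever of the 6 libraries was left out (0.69 to 0.96), without a filter on low counts and in 1 fit of all 18 libraries. RELB lost its call without replicate 1 or 2 of either group (0.97 to 1.10) and in 1 fit of all 18 libraries. BIRC3, an NF-κB target that inhibits cell death, was at 10.2, 10.3 and 4.72 CPM with NACET and 2.33, 2.50 and 1.23 CPM with H2O2 in control cells (2.04, edgeR adjusted p = 0.0227), a call lost without any 1 of these libraries except NACET replicate 3 (1.78 to 2.33).

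In NRF2 ΔC cells, 1 of 18 NF-κB genes tested rose with NACET, NFKB1, where 0.458 % of all genes did. The median log2 fold change of these 18 genes with NACET was 0.53, against -0.0067 over all genes. With H2O2 1 of 18 rose, TRAF1, a share close to the 4.26 % of all genes that rose. TRAF1 went from 4.34, 4.34 and 3.15 to 6.96, 18.3 and 9.07 CPM with H2O2, with replicate 2 the highest (1.54, edgeR adjusted p = 0.0274), a call lost without replicate 2 or 3 of either group (1.04 to 1.80). With the replicate block, 6 NF-κB genes rose and 1 fell with NACET in control cells and 8 rose with NACET in NRF2 ΔC cells, BIRC3, RELB, TNFAIP3 and TRAF1 among those that rose in both lines, where the block called 7.49 % and 8.82 % of all genes. With H2O2 in NRF2 ΔC cells 5 rose and 1 fell with the block, where it called 18.7 % of all genes. RELB in H2O2-treated NRF2 ΔC cells was at 9.66, 42.2 and 22.2 CPM, from 6.24, 14.2 and 6.48 CPM untreated, and was called with the block only (1.38, edgeR adjusted p = 8.80e-15). Of the STAT3 and C/EBP genes, 0 of 8 were called by edgeR with NACET in either line without the block. There 2.75 % of all genes were called in control and 1.39 % in NRF2 ΔC cells. With the block CEBPD rose with NACET in NRF2 ΔC cells, where 8.82 % of all genes were called. PIM1 fell with H2O2 in NRF2 ΔC cells (-0.61, edgeR adjusted p = 0.0379), a call lost whichever of the 6 libraries was left out (-0.66 to -0.50), without the filter and in 1 fit of all 18 libraries. Of 9 genes for the decay of cytokine mRNA, 1 was called with H2O2 in NRF2 ΔC cells, where 5.55 % of all genes fell. This was ZFP36L2, which fell by 0.95 on the log2 scale. ZFP36L2 was also lower in control cells with NACET (-0.53) and H2O2 (-0.56), under the fold limit. With NACET in NRF2 ΔC cells it had -0.70 (edgeR adjusted p = 0.0522), called with the replicate block.

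**Figure D5:**
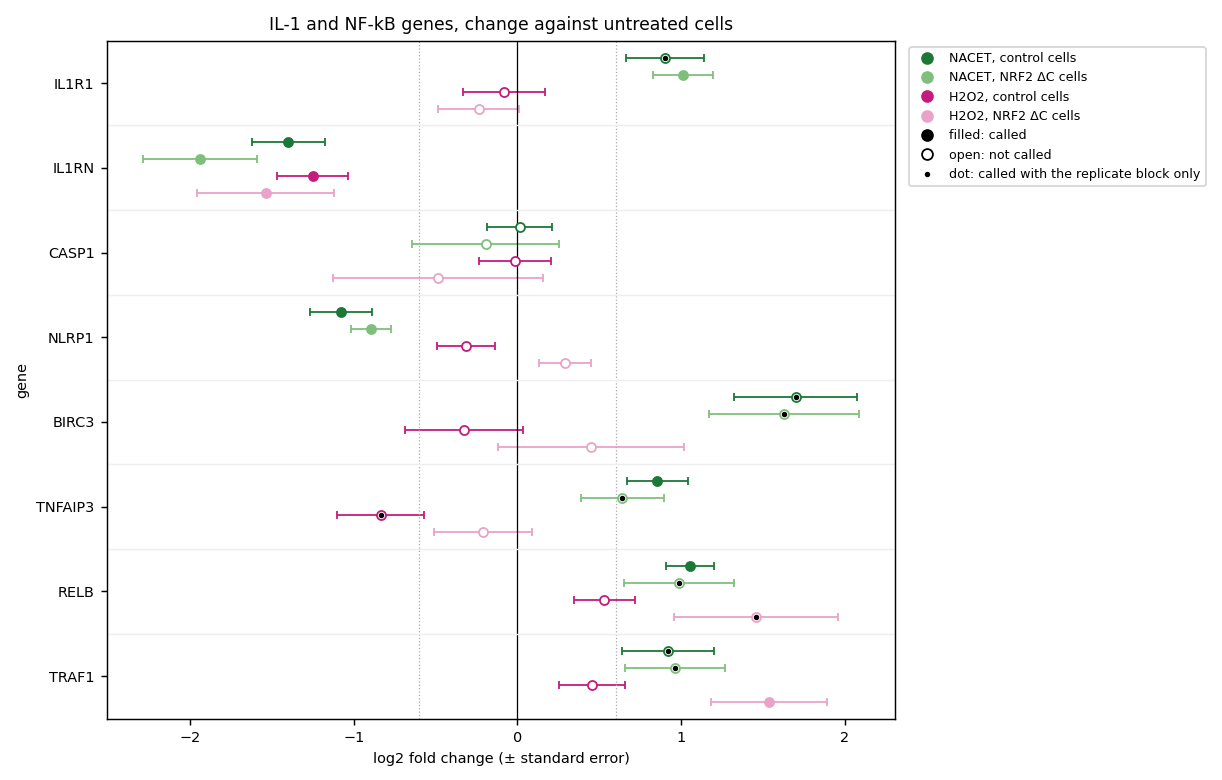
Log2 fold change with its standard error (x axis) of 4 IL-1 genes and 4 NF-κB genes (y axis) with NACET and H2O2 against untreated cells, with colours, filled points and dots as in the plot of the members by treatment. IL1RN was a DEG on the lower side in all 4 comparisons (-1.94 to -1.25), and BIRC3, TNFAIP3, RELB and TRAF1 lay above 0 with NACET in both lines.

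For 6 members the genes with the most similar pattern were sought by Pearson r of log2(CPM + 0.5) over the 18 libraries, among 12847 genes. They were NEDD9 (0.87), NLN (0.85) and FAM57A (0.83) for IL8, and LOC283070 (0.90), CDK2AP2 (0.89) and RRBP1 (0.88) for CCL2. For IL1A they were LOC388499 (0.92), LYPLA2 (0.92) and TMEM9 (0.91), and for IL1B LAT (0.95), EBF4 (0.95) and CLDN11 (0.94). For IL11 they were C6orf136 (0.93), SPRY4 (0.93) and ORAI1 (0.92), and for LIF LAMB3 (0.85), B4GALNT3 (0.83) and UBE2E2 (0.80). IL8 and CCL2 had a Pearson r of 0.60 with each other. The libraries share their line, treatment and replicate number, so these values describe a common pattern over the groups.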

How the data were processed

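Poly(A) RNA of 18 ARPE-19 samples was sequenced as single-end Illumina reads. The authors mapped the reads to hg19 with TopHat 2.1.0 and counted them per gene without regard to strand with HTSeq 0.11.2, with rRNA genes removed; the annotation is not given in the sources used here. The deposited files hold these whole-number counts per gene symbol, and 5 summary lines that name no gene were left out, so that 72.1 to 74.2 % of the listed reads were on genes.

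Counts were filtered with filterByExpr, scaled by TMM and compared between pairs of groups with edgeR 4.0.16 (quasi-likelihood test, R 4.3.3), with Benjamini-Hochberg adjustment over all genes tested. Calls required adjusted p-values under 0.05 and changes of 0.6 or more on the log2 scale, or for interactions the former alone. CPM were scaled over all 18 libraries. Alternatives were DESeq2 1.42.0, RLE scaling, no filter, 1 fit of all libraries, the replicate block and leaving out each library. The code was tested on simulated data.

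Deviations of same-numbered libraries from their group means, over 11010 genes with a mean of at least 5 CPM, correlated at 0.47 to 0.87 in all 18 pairs within a line, and at -0.26 to 0.78 between lines, where 6 of 9 pairs exceeded 0.1. The numbers were therefore read as pairing libraries within a line only, from the data and not from the labels. Replicates differed beyond sampling noise (chi-square per degree of freedom of 10.4 to 70.5), and nothing says that they were separate cultures, so p-values measure only the spread between these samples. The members and the lists of related genes were chosen with earlier results of these data known. Related genes are named where they were called or belong to IL-1 or NF-κB signalling. Promoters came from RefSeq (GRCh38.p14), and their positions and transcript overlaps from a GRCh37 genome with GENCODE v44lift37. Count intervals and floors cover counting error only.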

Additional observations from a re-analysis of the deposited data

Results flagged for a closer look

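LIF with H2O2 was the 1 result in which every library of one line moved one way and every library of the other line moved the opposite way. At the same replicate number, H2O2-treated control cells had 0.857-, 0.895- and 0.940-fold of the untreated CPM, and NRF2 ΔC cells had 1.09-, 1.08- and 1.21-fold. The difference of the log2 effects, NRF2 ΔC minus control, was 0.33 (standard error 0.14), with an unadjusted p of 0.0404 and an adjusted p of 0.848 from edgeR's quasi-likelihood test, so it did not pass the threshold. With replicate blocks within each line, added with the data in view, it was called (0.33, edgeR adjusted p = 0.0464), where 6.91 % of all genes were. Untreated NRF2 ΔC cells had the lowest group mean of LIF in the series. Their libraries lay at 147 to 181 CPM and overlapped those of H2O2-treated NRF2 ΔC cells, at 178 to 197 CPM. With 3 libraries in each group, no group was searched for a single outlying library.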

How the results depend on the processing

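Counts of members called moved as follows. DESeq2 called 2 in place of 1 with NACET in control cells, 1 in place of 0 with NACET and 2 in place of 0 with H2O2 in NRF2 ΔC cells, and 3 in place of 1 between the lines with NACET. Without a filter on low counts, 1 was called with H2O2 in NRF2 ΔC cells and 2 between the lines with NACET. In 1 fit of all 18 libraries the counts were 0 with H2O2 in control cells, 1 with NACET and 3 with H2O2 in NRF2 ΔC cells, 2 for NACET against H2O2 in NRF2 ΔC cells, and 1 untreated and 2 with NACET between the lines. The replicate block gave 4 and 2 with NACET and H2O2 in control cells, 2 and 5 in NRF2 ΔC cells, 3 for NACET against H2O2 in NRF2 ΔC cells and 4 between the lines with NACET, where the numbers do not pair the libraries; the block within each line gave 1 for each interaction. Leaving out each library gave, in control cells, 0 to 1 with either agent, in NRF2 ΔC cells 0 to 0 for NACET and 0 to 2 for H2O2, 1 to 2 and 0 to 2 for NACET against H2O2 in control and NRF2 ΔC cells, and 1 to 2, 1 to 3 and 1 to 4 between the lines untreated, with NACET and with H2O2. The cause was not tested.

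Over all genes, the replicate block moved the calls with NACET from 376 to 1026 in control and from 188 to 1195 in NRF2 ΔC cells, with H2O2 from 867 to 1400 and from 1329 to 2538, for NACET against H2O2 from 499 to 1019 and from 1121 to 2092, and for the interactions from 9 to 126 and from 3 to 967. DESeq2 moved them to 580 and 570 with NACET and to 28 and 77 for the interactions.

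Log2 values near 0 changed sign. LIF with NACET in control cells, -0.0045, was 0.0029 by DESeq2 and 0.00048 by RLE scaling. IL1B with NACET in NRF2 ΔC cells, -0.0050, was 0.0012 by DESeq2, 0.00014 by RLE scaling, 0.0040 without the filter, 0.014 in 1 fit and 0.011 with the block. CCL2 between the lines with NACET, -0.0032, was 0.0091 by DESeq2, 0.0058 by RLE scaling, 0.0096 without the filter and 0.029 in 1 fit, and with H2O2, 0.050, it was -0.026 with the block. None of these was called.

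Leaving out a library changed the sign of values that were not called. In control cells these were LIF with NACET (-0.032 to 0.047) and IL1B with H2O2 (-0.68 to 0.18). In NRF2 ΔC cells they were IL1A (-0.65 to 0.53) and IL1B (-0.14 to 0.25) with NACET, IL8 (-0.092 to 1.34) and IL1B (-0.0072 to 0.65) with H2O2, and IL1B for NACET against H2O2 (-0.62 to 0.024). Between the lines they were CCL2 (-0.038 to 0.45) and IL11 (-0.15 to 0.40) untreated, CXCL3 (-0.095 to 0.61) and CCL2 (-0.18 to 0.13) with NACET, and IL6 (-0.76 to 0.16), IL8 (-0.74 to 0.68), CCL2 (-0.31 to 0.35) and LIF (-0.078 to 0.012) with H2O2. For the interactions they were IL6 (-0.35 to 0.54), CCL2 (-0.47 to 0.043) and IL1A (-0.93 to 0.26) with NACET, and IL8 (-0.75 to 0.86), CXCL3 (-0.37 to 0.43) and CCL2 (-0.59 to 0.11) with H2O2. Depth limits CXCL1 and CXCL2, with at most 9 reads in a library, and in control cells CXCL3 and IL1A, which had as few as 3 reads in a library.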

Other observations

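Of 32 other cytokine and chemokine genes, 12 were tested in control cells and 11 in NRF2 ΔC cells. None of these was called by edgeR's quasi-likelihood test with NACET in either line, where 2.75 % and 1.39 % of all genes were. With the replicate block, CTF1 fell with NACET in control cells (-0.68, edgeR adjusted p = 5.37e-10) and in NRF2 ΔC cells (-0.75, adjusted p = 0.000106), and IL7 rose in NRF2 ΔC cells. With H2O2, CSF1, the growth factor of macrophages, rose in control cells (log2 fold change 0.75, edgeR adjusted p = 0.00503) and in NRF2 ΔC cells (1.08, adjusted p = 0.0285), where the call was lost without untreated replicate 3 or H2O2 replicate 2 or 3 (0.86 to 1.35). IL12A, a subunit of IL-12 and IL-35, also rose with H2O2 in both lines (1.06, adjusted p = 0.00259, and 1.25, edgeR adjusted p = 0.00556). CTF1, a cytokine of the gp130 family, fell with H2O2 in control cells (-0.73, edgeR adjusted p = 0.0420), a call lost without any 1 of the 6 libraries except H2O2 replicate 3 (-0.89 to -0.59). In NRF2 ΔC cells its log2 fold change with H2O2 was -0.58 (edgeR adjusted p = 0.103), called with the block (-0.60, adjusted p = 0.000388).

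CXCR7, a scavenging receptor of CXCL12 (ACKR3 in current annotation), was lower in NRF2 ΔC than in control cells without treatment (-1.85, adjusted p = 0.0140), with NACET (-2.32, adjusted p = 0.00320) and with H2O2 (-1.89, edgeR adjusted p = 0.00177). IL6R, the receptor of IL-6, was lower without treatment (-1.09, adjusted p = 0.0123) and with H2O2 (-0.94, edgeR adjusted p = 0.00671). CXCL12, with a mean under 1 CPM over those libraries, was called lower in untreated NRF2 ΔC than in untreated control cells. Under either treatment it was not called. The calls of CXCR7 and IL6R without treatment were each lost when replicate 2 of either line was left out (-2.26 to -1.60 and -1.21 to -0.94).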
